A study of Citrus maxima and Citrus sinensis with 8 samples.

Results

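The genes described here were high in 1 of the 2 libraries made from aluminium-treated leaves of sweet orange (Citrus sinensis) and near the control level in the other. A gene was a member when its FPKM + 1 in aluminium library 1 was at least 3 times the higher of the 2 C. sinensis control libraries while aluminium library 2 stayed under 1.5 times that control. FPKM counts the fragments of a gene relative to its length and to the depth of the library. A mean of at least 1 and below 500 FPKM over the 8 libraries was also required. The rule chose 304 of the 30297 gene IDs listed, which is 1.86% of the 16327 IDs with a mean of at least 1 FPKM. It used all 4 C. sinensis libraries, so the levels and ratios of the members in that species describe the choice and carry no test. The C. grandis libraries entered the rule only through the mean, which a gene low in C. sinensis met more readily when it was high in C. grandis.

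The study sequenced leaf mRNA of seedlings of C. sinensis and of pummelo, which the design text names C. grandis and the organism label Citrus maxima. The 4 groups were C. sinensis leaves after 18 weeks with aluminium, C. sinensis control leaves, C. grandis leaves after 18 weeks with aluminium and C. grandis control leaves. Each group had 2 libraries. The labels name 2 biological replicates for each group, each a pool of leaves of 5 seedlings grown 1 to a pot, and also speak of 2 independent RNA extractions. They tie no library to its own pool, so p-values measure the spread between the libraries of a group, which may be technical. The labels used here state no aluminium dose, and a pool hides how far its 5 seedlings differed.

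Aluminium dissolves in acid soils as an ion that damages root tips, and leaves of exposed plants change mostly through what the root takes up, withholds or signals. Citrus species differ in how well they grow with it, and the series set side by side species of contrasting tolerance. The deposited files list IDs without gene names, so no member can be given a function, and lists of pathways, of leaf cell types and of aluminium tolerance genes could not be matched to any ID. In leaf RNA of this kind, fewer cells that express a gene and less RNA per cell cannot be told apart.

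The libraries differed in how well replicates agreed. Library totals ran from 16443205 to 19794247 reads. Over IDs with at least 20 reads in a pair of replicates, the counts differed beyond the 95% limit of counting error for 52.1% of IDs between the C. sinensis aluminium libraries, 32.2% between the C. sinensis controls, 10.9% between the C. grandis aluminium libraries and 58.6% between the C. grandis controls, where counting error alone gives 5%. The C. grandis aluminium libraries were therefore closer to each other than any other pair, although they still differed by more than counting error. Whether they came from separate pools could not be settled, so they were also fitted as 1 replicate. The median gap between the C. sinensis aluminium libraries was 0.21 on the log2(FPKM + 1) scale over the tested genes, below the 0.24 of the C. grandis controls. Strongly raised genes were less even: 494 of the tested genes, 3.03%, were at least 3 times the higher control in C. sinensis aluminium library 1, and 101, 0.619%, in library 2. A set of 118 genes, 5 of them members, was chosen for at least 1 FPKM in every C. grandis library and under 3 reads in both C. sinensis controls. Of these, 92 had under 3 reads in C. sinensis aluminium library 1 and 87 in library 2, libraries the choice did not use. Summed over the 118 genes, these libraries held 1251 and 486 reads, against 65 and 62 in the controls, which the choice kept low. The 5 members among them were high in library 1 by the rule. In the C. grandis aluminium libraries the sums were 13137 and 12338 reads, with medians of 46 and 44 reads a gene. The number of genes under 3 reads thus leaves out the higher read sum of library 1. How much of that sum fell on the 5 members is not given, so the sums do not compare the libraries.

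**Figure D1:**
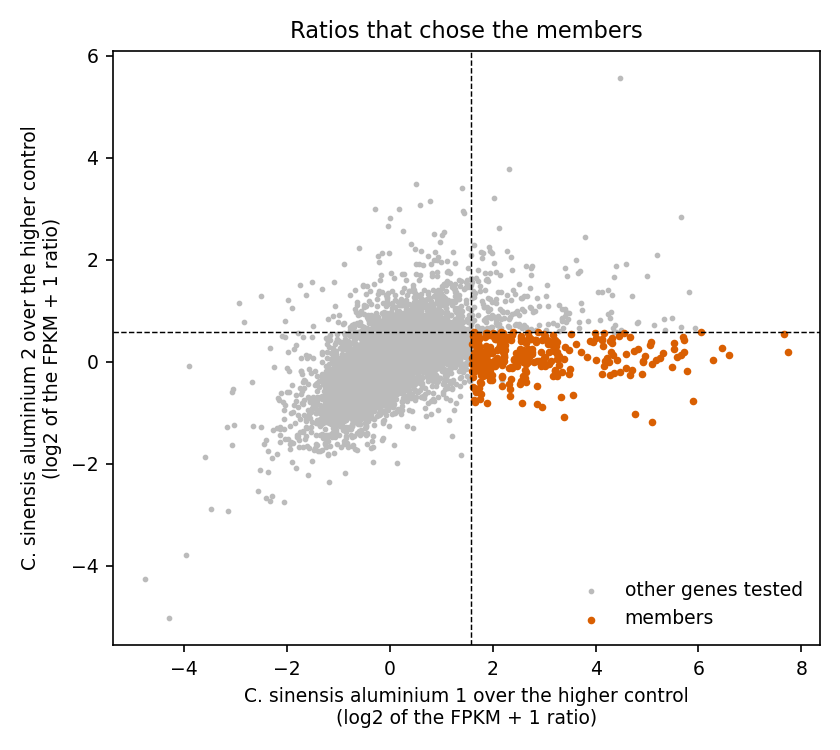
Each point is 1 of the 16327 genes tested, by its log2 ratio of FPKM + 1 to the higher C. sinensis control in aluminium library 1 (horizontal) and library 2 (vertical). Dashed lines mark the ratios of 3 and 1.5, and the 304 members (orange) fill the lower right corner by construction.

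The members ran from weakly to strongly expressed genes. Their mean over the 8 libraries was between 1.01 and 495 FPKM with a median of 13.9 FPKM. In C. sinensis aluminium library 1 they stood at 2.14 to 908 FPKM with a median of 30.3 FPKM, and 67 of them were at 100 FPKM or more. Their medians were 3.27 FPKM in aluminium library 2 and 2.76 and 3.12 FPKM in the control libraries, and 5 members reached 100 FPKM in each of these 3 libraries. Aluminium library 1 was between 3.02 and 213 times the higher control on FPKM + 1, with a median of 5.5, while aluminium library 2 was between 0.443 and 1.5 times it, with a median of 1.09.

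Together the members held 4.23% of all reads in C. sinensis aluminium library 1 and 0.681% in library 2, against 0.584% and 0.581% in the C. sinensis controls. The same genes held 3.85% and 3.87% of the reads in the C. grandis aluminium libraries, against 0.892% and 0.996% in the C. grandis controls. The C. grandis aluminium libraries thus lay near C. sinensis aluminium library 1 in this share, and the 2 C. grandis groups did not overlap. No member rested on a handful of reads in the library that chose it: the lowest count there was 41 reads and the median 834.

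Within the limit of 1.5 times the higher control, aluminium library 2 was above both controls for 202 members, below both for 49 and level with or between them for 53. It was above both controls for 66.4% of the members, beside 53.1% of all genes tested. The median difference of library 2 from the mean of the controls was 0.20 on the log2(FPKM + 1) scale for the members and 0.10 for all genes tested, and that of library 1 was 2.54 and 0.05. The control libraries themselves showed no lean among the members: control 2 was above control 1 for 52.6% of them, beside 49.7% of the genes tested.

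**Figure D2:**
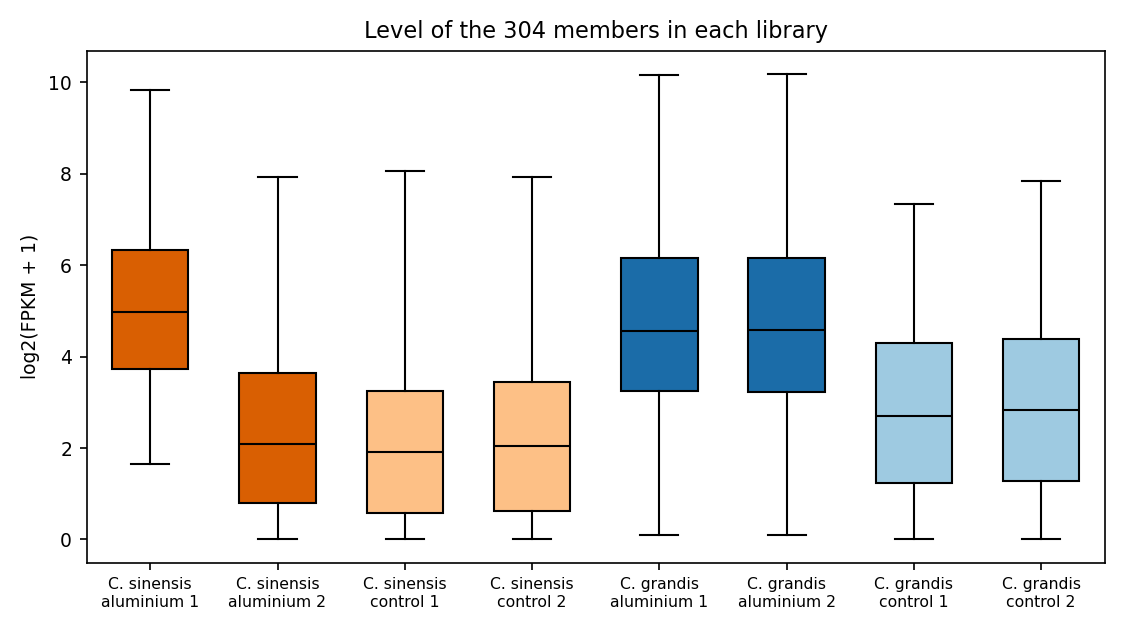
Levels of the 304 members on the log2(FPKM + 1) scale in each library, with boxes from the first to the third quartile, a line at the median and whiskers to the lowest and highest value. The medians are 4.97 in C. sinensis aluminium 1, between 1.91 and 2.09 in the other 3 C. sinensis libraries, 4.55 and 4.58 in C. grandis aluminium, and 2.7 and 2.83 in C. grandis control.

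The members at the top of the ratio show the pattern most plainly. Cs1g16650 stood at 310 and 0.675 FPKM in the C. sinensis aluminium libraries, against 0.395 and 0.463 FPKM in the controls. These levels rest on 4032 and 10 reads with aluminium and 6 and 7 reads in the controls, so library 1 alone was high. Cs1g17210 stood at 448 and 2.23 FPKM with aluminium, against 0.877 and 1.21 FPKM in the controls. Library 1 of Cs1g17210 was 203 times the higher control on FPKM + 1.

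The most abundant members changed by smaller factors. Cs2g21000 had 730 and 241 FPKM in the C. sinensis aluminium libraries, against 177 and 151 FPKM in the controls, and its library 2 was also above both controls. Cs1g07950 had 908 and 160 FPKM with aluminium, against 267 and 243 FPKM in the controls. Here the aluminium libraries fell on opposite sides of the controls, with library 2 at 0.602 times the higher control.

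The thresholds divide a continuous range. Just inside the ratio of 3, Cs8g17530 and Cs2g11250 were at 3.02 each, and just outside it Cs8g04460 and orange1.1t02482 were at 2.99 each. At the limit of 1.5 for library 2, Cs7g30720 and Cs3g18030 were just inside at 1.499 and 1.497. Just outside, Cs7g07990 and Cs4g02450 were at 1.5004 and 1.5005 with ratios of 20.6 and 21.1 in library 1. A set of 147 genes had library 1 at least 3 times the higher control and library 2 between 1.5 and 3 times it, and 41 had both libraries at least 3 times it. The folds alone were met by 323 genes, of which 18 had a mean below 1 FPKM and 1 had a mean above the upper limit. Of the members, 286 would also reach a mean of 1 FPKM over the other 7 libraries.

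The question put to the other species was whether these unevenly raised genes respond to aluminium in C. grandis. Most were higher with aluminium there as well: both C. grandis aluminium libraries were above both controls for 283 of the 304 members and below both for 8, while the groups overlapped for 13. Over all genes tested, 24.7% were above and 40.1% below in this sense. Median levels of the members were 22.4 and 22.9 FPKM in the C. grandis aluminium libraries, against 5.51 and 6.14 FPKM in the C. grandis controls.

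With limma at an adjusted p below 0.05, fitted to the 4 C. grandis libraries over all 16327 genes, 222 members were called higher with aluminium, 2 were called lower and 80 were not called. That is 73% of the members called higher, beside 6.69% of all genes tested, and 0.658% called lower, beside 6.24%. The median log2 fold change of the members in C. grandis was 1.63, with quartiles at 0.93 and 2.56, beside a median of -0.09 over all genes tested. The 222 called members were 20.3% of the 1093 genes called higher in C. grandis. In 136 members, 44.7%, both aluminium libraries were at least 3 times the higher control on FPKM + 1, a change seen in 2.1% of the genes tested. None of the members had both aluminium libraries at 0.333 times the lower control or less, beside 0.539% of the genes tested. A fit with no filter on low values took in the 18 genes that met the folds but had a mean below 1 FPKM. It called 4 of these higher and 0 lower, with a median log2 fold change of 0.41 on a scale that understates changes of low genes. The same fit called 61.2% of the members and 3.68% of all its genes higher, and 2.78% of all its genes lower.

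These calls depended on how the spread was estimated, while the median fold change did not turn. Treating the C. grandis aluminium libraries as 1 replicate, or leaving out either of them, limma called 0 genes of any kind. The spread then came from the controls alone. In these 3 fits 231 or 232 members were higher at an unadjusted p below 0.05, beside 7.04% to 7.24% of all genes, and 2 were lower, beside 5.64% to 6.09%. With all 8 libraries in the fit, whose spread takes in the gap between the C. sinensis aluminium libraries that the rule made wide, 43 members were called higher, beside 6.41% of all genes, and 0 lower, beside 9.7%. At an unadjusted p below 0.05 that fit had 143 members higher, beside 12.7% of all genes, and 0 lower, beside 21.7%.

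The largest rises in C. grandis belonged to genes from the top of the C. sinensis ratio. Cs1g16650 stood at 558 and 550 FPKM in C. grandis aluminium leaves, against 0.633 and 1.32 FPKM in control leaves. Its log2 change was 8.16 with an SE of 0.20 and an adjusted p of 0.00423 by limma. Counted in reads at equal depth the rise was 555-fold, between 381-fold and 843-fold at 95% counting error. Cs6g15360 had 104 FPKM in each C. grandis aluminium library and no read in either control. With 3 reads over both controls taken as the floor, it was at least 675-fold higher, and its log2 change was 6.72 (SE 0.10, adjusted p = 0.00423 by limma). In C. sinensis it had 898 reads in aluminium library 1 and 1 read in library 2, against none in the controls, so its presence followed the same split of libraries.

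Cs1g17210 stood at 371 and 360 FPKM in C. grandis aluminium leaves, against 2.95 and 4.19 FPKM in control leaves (log2 change 6.34, SE 0.16, adjusted p = 0.00423 by limma). Of the abundant members, Cs2g21000 reached 1144 and 1157 FPKM in C. grandis aluminium leaves, against 151 and 207 FPKM in control leaves (log2 change 2.70, SE 0.20, adjusted p = 0.0148 by limma). Cs1g07950 stood at 551 and 617 FPKM with aluminium in C. grandis, against 152 and 151 FPKM in the controls (log2 change 1.94, SE 0.10, adjusted p = 0.00866 by limma). In each of these 3 genes the C. grandis aluminium libraries agreed closely and lay far above both controls. Without either C. grandis aluminium library, the adjusted p of every member was 0.118 or more.

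**Figure D3:**
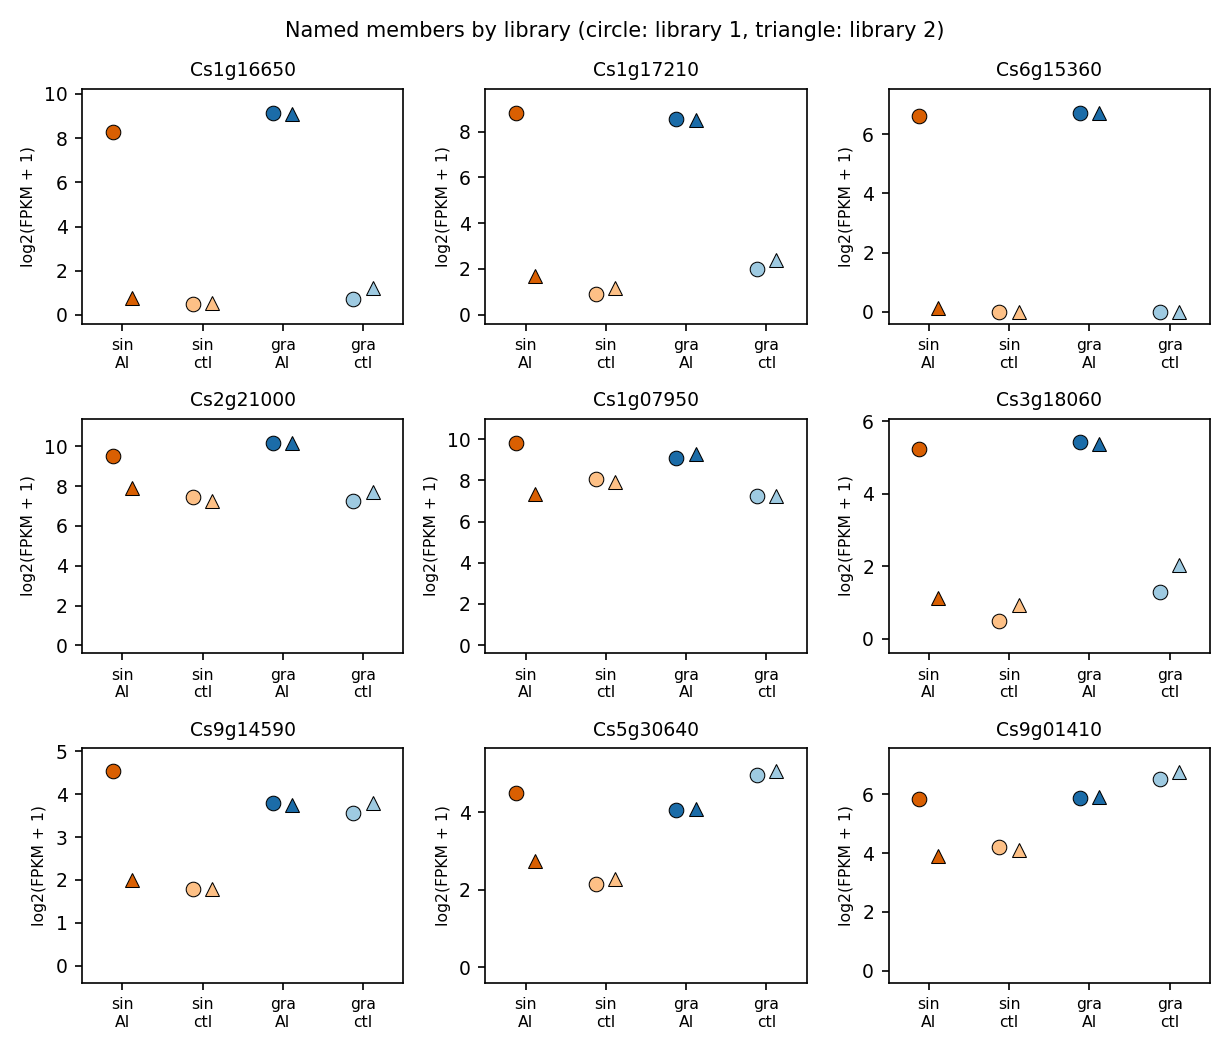
Levels of 9 members on the log2(FPKM + 1) scale in the C. sinensis (sin) and C. grandis (gra) groups, with circles for library 1 and triangles for library 2 of the aluminium (Al) and control (ctl) leaves. In all 9 the C. sinensis aluminium libraries are far apart, while the C. grandis aluminium libraries nearly coincide and, for Cs5g30640 and Cs9g01410, lie below the C. grandis controls.

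Members with a larger ratio in C. sinensis aluminium library 1 were also changed more in C. grandis. The ratio and the change both use FPKM + 1, which holds down each of them in weakly expressed genes. How far this ties them was not tested. Of the 141 members with a ratio of 3 to 5, 83 (58.9%) were called higher in C. grandis and their median log2 fold change was 1.18. Of the 90 with a ratio of 5 to 10, 69 (76.7%) were called higher, with a median of 1.64. For the 31 with a ratio of 10 to 20, 30 were called higher and the median was 2.57. For the 42 above 20, 40 were called higher and the median was 3.54. Across the 304 members, the change in C. sinensis aluminium library 1 and the change in C. grandis had a Pearson's r of 0.68 and a Spearman's rho of 0.55. Over all 16327 genes tested the values were 0.59 and 0.46, so the relation was not limited to the members, which were chosen on the library 1 change. These are correlations across genes of the same libraries, which are not independent replicates, and the changes share no control library.

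**Figure D4:**
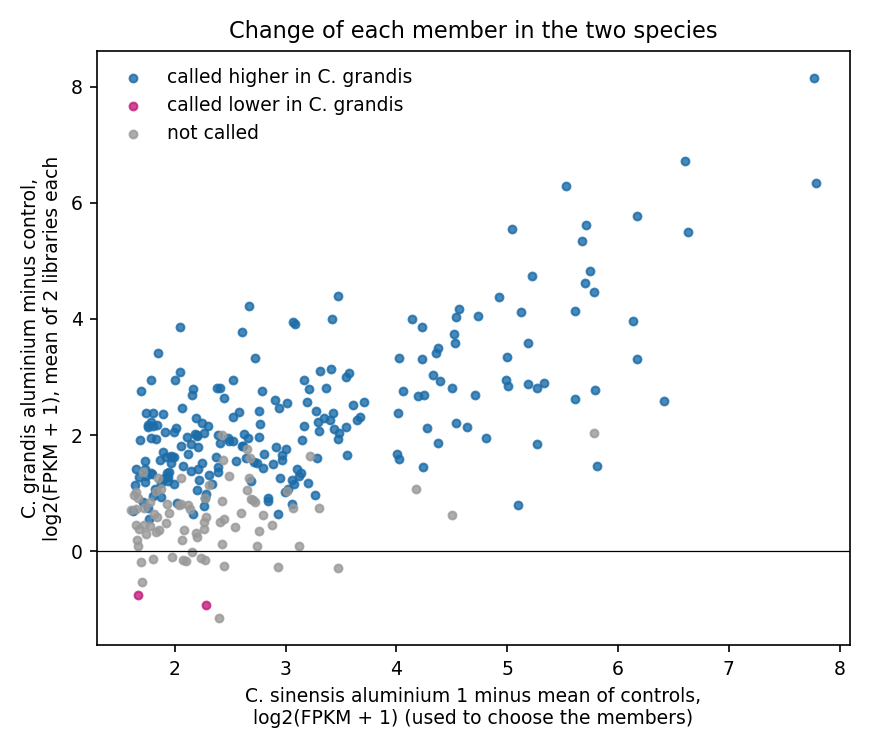
Change of each member on the log2(FPKM + 1) scale: C. sinensis aluminium 1 minus the mean of the C. sinensis controls (horizontal, used to choose the members) and C. grandis aluminium minus control, means of 2 libraries each (vertical). Blue points are the 222 members called higher by limma in C. grandis, pink points the 2 called lower and grey points the 80 not called.

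The levels reached with aluminium were often alike. C. sinensis aluminium library 1 was within a factor of 2 of the mean of the C. grandis aluminium libraries, on FPKM + 1, for 211 of the 304 members. It was above both C. grandis aluminium libraries for 181 members, below both for 113 and between them for 10. The median difference was 0.22 on the log2 scale. These counts were not made over all genes tested, so they do not set the members apart from other genes.

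Wider gaps were few and ran in both directions, and the genes given for them were chosen after their values were seen. For 30 members C. sinensis aluminium library 1 was at least 3 times both C. grandis aluminium libraries on FPKM + 1, and for 9 it was at most 0.333 times both. The widest was orange1.1t03155, with 225 and 6.68 FPKM in C. sinensis aluminium leaves and 4.07 and 7.61 FPKM in the controls. In C. grandis this gene had 1.1 and 1.3 FPKM with aluminium, against 0.152 and 0.399 FPKM in the controls. Cs7g05460 had 67.7 and 0.109 FPKM in C. sinensis aluminium leaves, against 0.191 and 0.256 FPKM in the controls, and 2.11 and 2.54 FPKM in C. grandis aluminium leaves, against 0.23 and 0.179 FPKM in the controls. Both genes thus had by far their highest level in C. sinensis aluminium library 1. Both were called higher with aluminium in C. grandis, at low levels. The call was lost in 9 of 15 alternatives for orange1.1t03155 and in 4 of 16 for Cs7g05460. The log2 change by limma was 0.79 (adjusted p = 0.0418) for orange1.1t03155 and 1.46 (adjusted p = 0.0107) for Cs7g05460. In the other direction, Cs2g07700 had 109 and 1.96 FPKM in C. sinensis aluminium leaves, against 1.1 and 1.08 FPKM in the controls. Its C. grandis levels were 899 and 895 FPKM with aluminium, against 17.7 and 17 FPKM in the controls.

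The 80 members not called in C. grandis leaned the same way. Their log2 fold change was positive for 67 and negative for 13, with a median of 0.62, and 61 had both aluminium libraries above both controls. Over all 16327 genes tested, the change was positive for 6524, and 24.7% had both aluminium libraries above both controls. A log2 change of at least 1 was seen in 18 of them and a change of less than 1.5-fold in 37. Their median level over the C. grandis libraries was 9.48 FPKM, against 17.6 FPKM for the members called higher. Among members with a C. grandis mean of at least 5 FPKM, Cs9g14590 was nearest to no change after Cs7g30720, with 12.9 and 12.4 FPKM in C. grandis aluminium leaves, against 10.8 and 12.9 FPKM in the controls (log2 change 0.09, SE 0.13, adjusted p = 0.652 by limma). In C. sinensis it stood at 22.2 and 2.96 FPKM with aluminium, against 2.46 and 2.47 FPKM in the controls. Cs7g30720 had 32.9 and 31.1 FPKM in C. grandis aluminium leaves, against 28.3 and 31.9 FPKM in the controls (log2 change 0.09, SE 0.09, adjusted p = 0.567 by limma). In both genes the C. grandis groups overlapped.

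Nearly all members were expressed in both species. In 276 of them every library was above 0, and 8 had a mean below 1 FPKM over the C. grandis libraries, of which 2 were called higher there. Cs1g11630 was the only member with fewer than 3 reads in every C. grandis library: it had 2 reads in each C. grandis aluminium library and none in the controls. In C. sinensis it had 248 and 1 reads with aluminium, against 2 and 1 in the controls.

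The 2 members called lower in C. grandis had higher control levels there than in C. sinensis. Cs5g30640 had 15.6 and 16.1 FPKM in C. grandis aluminium leaves, against 30.2 and 32.2 FPKM in the controls, and fell by 0.93 in log2 units (SE 0.08, adjusted p = 0.0174 by limma). In C. sinensis it had 21.5 and 5.68 FPKM with aluminium, against 3.45 and 3.83 FPKM in the controls. Cs9g01410 had 57.4 and 58.1 FPKM in C. grandis aluminium leaves, against 90.5 and 107 FPKM in the controls, and fell by 0.76 in log2 units (SE 0.11, adjusted p = 0.035 by limma). In C. sinensis it had 55.6 and 14 FPKM with aluminium, against 17.5 and 16.1 FPKM in the controls. For both genes C. sinensis aluminium library 1 lay below the C. grandis control levels.

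Control leaves of C. grandis held more of the members' transcripts than control leaves of C. sinensis. Both C. grandis controls were above both C. sinensis controls for 220 members (72.4%, beside 47.7% of the genes tested) and below both for 36 (11.8%, beside 29.4%). The median difference, C. grandis minus C. sinensis, was 0.63 on the log2 scale for the members and 0.17 for the genes tested. The C. sinensis controls were part of the rule, which favours genes low in them, so this difference is a description. Both species were counted on the same IDs, and how far mapping differs by species was not tested. At 1 FPKM or more in both C. sinensis controls, 415 genes had under 3 reads in every C. grandis library. At 1 FPKM or more in every C. grandis library, 118 had under 3 reads in both C. sinensis controls. In 27 members the C. grandis controls were at least 3 times both C. sinensis controls on FPKM + 1. Of these, 11 were called higher with aluminium in C. grandis, 2 lower and 14 not at all. Called higher were 73% of all members and 6.69% of all genes tested, and called lower 0.658% and 6.24%. The 2 lower calls among the 27 are thus near the share over all genes tested.

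Sets chosen in a like way on the C. sinensis libraries differed in how they behaved in C. grandis. The mirror of the rule, with library 2 at least 3 times the higher control and library 1 under 1.5 times it, held 25 genes. Of these, 8 (32%) were called higher and 5 (20%) lower in C. grandis, with a median log2 fold change of 0.24. Of the 147 genes with library 1 at least 3-fold and library 2 between 1.5-fold and 3-fold, 83 (56.5%) were called higher and 3 lower, with a median of 1.20. For the 41 genes at least 3-fold in both libraries, 17 (41.5%) were called higher and 4 lower, with a median of 0.73. The 35 genes at least 3-fold in library 2 and between 1.5-fold and 3-fold in library 1 had 10 called higher and 6 lower, with a median of 0.10. The share called higher in C. grandis was 73% in the members and between 28.6% and 56.5% in these other sets, which is a description of sets that differ in size and level. In the other direction, 15 genes were at most 0.333 times the lower control in library 1 and above 0.667 times it in library 2, and no gene showed the reverse. Of those 15, 1 was called higher and 3 lower in C. grandis.

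**Figure D5:**
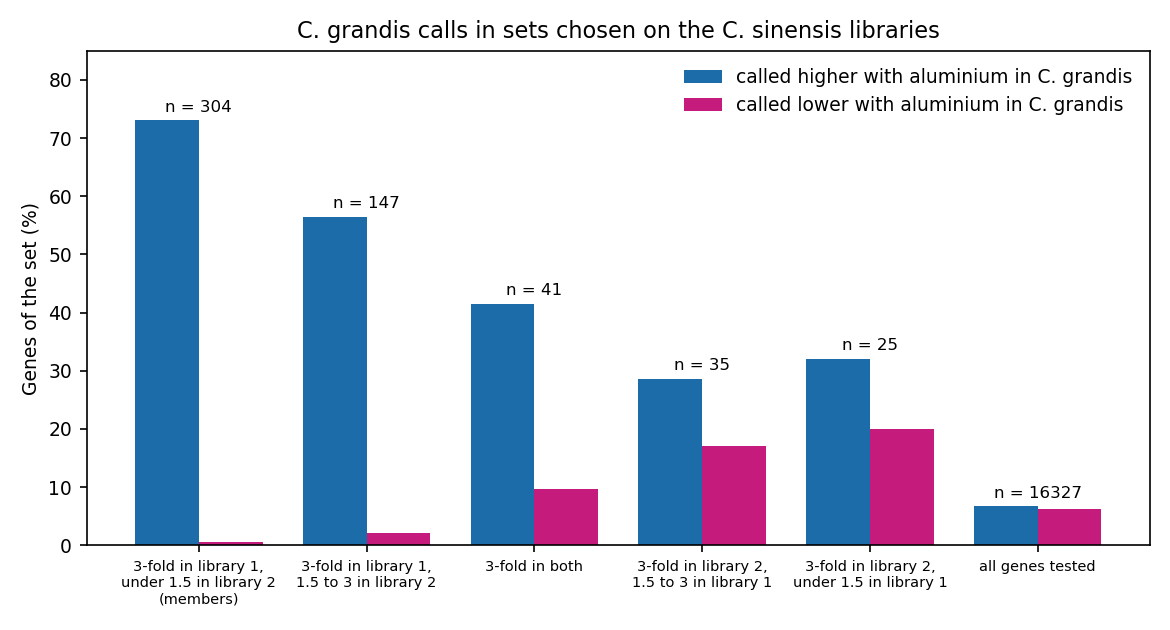
Percentage of genes called higher (blue) and lower (pink) with aluminium in C. grandis by limma, in sets chosen on the ratio of each C. sinensis aluminium library to the higher control, with the number of genes above the bars. The members show 73% called higher and 0.658% called lower, beside 6.69% and 6.24% of all genes tested.

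Genes chosen in C. grandis alone, without the rule, also set the C. sinensis aluminium libraries apart. In 343 genes both C. grandis aluminium libraries were at least 3 times the higher control, and 136 of these (39.7%) were members. C. sinensis aluminium library 1 was at least 3-fold for 202 of the 343 (58.9%) and library 2 for 30 (8.75%), with 16 at least 3-fold in both and 127 in neither. Over all genes tested these shares were 3.03% for library 1 and 0.619% for library 2, so library 1 had the larger share there too. Median changes of the 343 genes on the log2 scale were 2.06 in library 1 and 0.40 in library 2. In 88 genes both C. grandis aluminium libraries were at most 0.333 times the lower control, and their median changes were -0.57 in C. sinensis aluminium library 1 and -0.02 in library 2. Of the 88, library 1 was at most 0.333 times the lower C. sinensis control for 14 and library 2 for 8. The share over all genes tested was not counted, so these counts do not compare the libraries. Both C. sinensis changes are taken against the same control libraries.

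The members were spread over the ID series. The 9 numbered series (Cs1g to Cs9g) each held between 22 and 40 members, from 1.49% of the tested genes of Cs5g to 2.35% of those of Cs8g. The orange1.1t series held 28 members, 1.2% of its tested genes, and 11 members had IDs outside these series. The median gene length recovered from the FPKM was 1678 bp for the members and 1720 bp for the genes tested.

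Some members were neighbours in the numbering. Among the 293 members with a numbered ID, 22 (7.51%) had another member as the next or previous ID, beside 2.05% of the other tested genes. These formed 9 pairs and 1 run of 4. Genes next to each other in the numbering can be near-identical copies whose reads cannot be told apart by the counting, and no sequence was used here to check this.

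The run of 4 was Cs3g18050 to Cs3g18080, and each of its genes was called higher with aluminium in C. grandis. Cs3g18050 had 48.3 and 2.86 FPKM in C. sinensis aluminium leaves, against 5.8 and 4.05 FPKM in the controls, and 16.7 and 18.1 FPKM in C. grandis aluminium leaves, against 6.44 and 8.1 FPKM in the controls (log2 change 1.16, SE 0.15, adjusted p = 0.032 by limma). The call of Cs3g18050 was lost in 7 of 16 alternatives, with adjusted p-values from limma up to 0.469 with all 8 libraries. Cs3g18060 had 36.5 and 1.18 FPKM in C. sinensis aluminium leaves, against 0.395 and 0.903 FPKM in the controls. Its C. grandis levels were 41.9 and 40.2 FPKM with aluminium, against 1.43 and 3.11 FPKM in the controls (log2 change 3.74, SE 0.30, adjusted p = 0.0166 by limma). The neighbours thus differed in their C. grandis change.

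Cs3g18070 had 44.1 and 1.44 FPKM in C. sinensis aluminium leaves, against 2.43 and 2.8 FPKM in the controls. In C. grandis it stood at 7.36 and 8.96 FPKM with aluminium, against 0.67 and 1.15 FPKM in the controls (log2 change 2.27, SE 0.19, adjusted p = 0.0175 by limma). Cs3g18080 was the weakest of the run, with 4.12 and 0.607 FPKM in C. sinensis aluminium leaves, against 0.317 and 0.446 FPKM in the controls. Its C. grandis levels were 8.74 and 7.94 FPKM with aluminium, against 0.864 and 0.78 FPKM in the controls (log2 change 2.36, SE 0.11, adjusted p = 0.00684 by limma). In C. sinensis aluminium library 2, Cs3g18050 and Cs3g18070 lay below both controls while Cs3g18060 and Cs3g18080 lay above both.

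Among the pairs, Cs1g17220 follows Cs1g17210 in the numbering and had 408 and 4.63 FPKM in C. sinensis aluminium leaves, against 2.67 and 3.64 FPKM in the controls. In C. grandis it stood at 470 and 459 FPKM with aluminium, against 8.22 and 10.4 FPKM in the controls (log2 change 5.50, SE 0.13, adjusted p = 0.00423 by limma). A contrasting pair, picked like this one after its values were seen, was Cs7g29760 and Cs7g29770. Cs7g29760 had 3.95 and 0.472 FPKM in C. sinensis aluminium leaves, against 0.0576 and 0.116 FPKM in the controls, and 9.78 and 8.92 FPKM in C. grandis aluminium leaves, against 8.64 and 6.2 FPKM in the controls. Cs7g29770 had 2.39 FPKM and no read in C. sinensis aluminium leaves, against no read and 0.0355 FPKM in the controls, and 3.82 and 3.14 FPKM in C. grandis aluminium leaves, against 3.06 and 2.24 FPKM in the controls. Neither gene of this pair was called in C. grandis (limma adjusted p = 0.349 and 0.314), where both were already expressed in control leaves.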

How the data were processed

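Leaf mRNA of 8 pooled samples was sequenced, and the authors deposited FPKM per library for 30297 IDs, per the file headers. Per the submitters' processing notes the tools included HTSeq, TopHat2, Bowtie and edgeR 1.18.0, in no stated role. No source used here names the genome build or a batch. Members, lists and tests were chosen with earlier results of these data known.

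The ratios between deposited FPKM gave back whole reads per gene, lengths and totals (100% of values within 0.01 of a whole number, a weak check because the recovery searches for whole numbers). They served for counting error, floors and voom. Intervals cover counting error only, since PCR copies are not independent molecules.

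The aluminium effect in C. grandis was tested on log2(FPKM + 1) of its 4 libraries with limma (version 3.58.1, R 4.3.3), with a trend on expression and 2 residual degrees of freedom, over the 16327 IDs with a mean of at least 1 FPKM over the 8 libraries. P-values were two-sided and adjusted by Benjamini-Hochberg, and genes were called below 0.05. The log2(FPKM + 1) scale understates changes of low genes. The fit was also run on simulated libraries that were given an equal spread in both groups. In the data the median log2 gap over the tested genes was 0.07 between the C. grandis aluminium libraries and 0.24 between the controls. That run therefore does not bear on the calls given here. All 8 libraries were not fitted together for the main result, since the rule widens the C. sinensis spread of every member.

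Genes were named by position in fixed rankings: the 2 members with the largest library 1 ratio, highest mean, largest rise and fall in C. grandis, values nearest each threshold and nearest to no change, fewest C. grandis reads, and the longest run of neighbours. Others are marked as chosen after their values were seen. Alternatives covered the pseudocount, filter, scaling, libraries in the fit, replicate block, replicates left out and the thresholds of the rule.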

Additional observations from a re-analysis of the deposited data

Results flagged for a closer look

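Cs5g30640 fell by 0.93 on the log2 scale in C. grandis, while both C. sinensis aluminium libraries lay above both C. sinensis controls. By position alone, 5 members (1.64%, beside 9.25% of the genes tested) had both aluminium libraries above both controls in C. sinensis and below both in C. grandis. Of these, Cs5g30640 was the only one called in C. grandis. The others, named after their values were seen, were Cs3g18760, Cs5g17510, Cs9g04520 and Cs9g06060, with adjusted p-values between 0.176 and 0.379 by limma, so no change in C. grandis was shown for them. In Cs5g17510 the position rests on next to no gap, with 0.177 FPKM in C. sinensis aluminium library 2, against 0.173 and 0.174 FPKM in the controls. Cs9g04520 was at 0.0724 and 0.151 FPKM in C. grandis aluminium leaves, against 0.459 and 0.201 FPKM in the controls. The difference between the species was not tested, because the rule used the C. sinensis libraries. Cs9g06060 had the lowest log2 change in C. grandis, -1.16 (limma adjusted p = 0.176), with 19.8 and 19.9 FPKM in aluminium leaves, against 30 and 68.7 FPKM in control leaves. In C. sinensis it had 6.4 and 0.841 FPKM with aluminium, against 0.262 and 0.561 FPKM in the controls.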

How the results depend on the processing

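The median log2 fold change of the members in C. grandis stayed positive in every alternative run. It was 1.99 and 1.83 with pseudocounts of 0.1 and 0.5, 2.04 with voom, and 1.58 to 1.73 with 1 C. grandis library left out. Counts of members called moved more. With all 8 libraries 43 members were called higher and 0 lower (all genes: 1046 and 1584). Treating the C. grandis aluminium libraries as 1 replicate, the counts were 0 and 0 (all genes: 0 and 0), and with no filter 186 and 1 (all genes: 861 and 650). Leaving out 1 C. grandis library gave 0 to 272 members higher and 0 to 7 lower (all genes: 0 to 3107 and 0 to 4496), with 0 when an aluminium library was left out and at least 266 higher when a control was. Fits with 1 library left out or the aluminium pair as 1 replicate had 1 residual degree of freedom, with the spread taken from the group that kept 2 libraries. With a replicate block the counts were 159 and 0 (all genes: 437 and 125), with 266 and 3 at an unadjusted p below 0.05 (all genes: 1942 and 2616). The deviations of same-numbered libraries had a correlation of 0.019, so the numbers were not used as pairs. In 2 alternatives added after seeing the data, the C. sinensis controls joined the fit. They gave 254 members higher and 2 lower (all genes: 1760 and 2332), and, with the C. grandis aluminium pair as 1 replicate, 195 and 1 (all genes: 660 and 331). The 136 members at least 3-fold in both C. grandis aluminium libraries moved by less than 1.5 times in each alternative run. The other settings called 220 to 247 members higher and 2 lower (all genes: 1051 to 1318 and 911 to 1380). The rule chose 571 genes at a ratio of 2, of which 57.1% were called higher in C. grandis. With its other alternatives it chose 212 to 395 genes, of which 66.7% to 77.8% were called higher. These percentages are from the main fit, which called 6.69% of all genes tested higher. Of the 31 named genes, none changed direction where it was called. The 20 named genes called in C. grandis each lost the call in 3 to 9 alternatives, with Cs5g30640 at 5, Cs9g01410 and Cs3g18050 at 7 of 16 each and orange1.1t03155 at 9 of 15. With 2 libraries a group the spread is known poorly, which limits every adjusted p.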
